A study of Mus musculus with 2 samples.

Results

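The 4 genes described here are Ccr2 and the 3 chemokine genes Ccl2, Ccl7 and Ccl12, chosen by name out of 55357 features. Their unique molecular identifiers (UMIs, tags that count single mRNA molecules) were read in immune cells of mouse lungs with melanoma metastases, sorted into macrophage, monocyte and T cell types by the UMIs of other genes. The study grew B16F10 tumours, a C57 mouse melanoma line, with wild-type IRF7 or with IRF7 carrying the C435A change. IRF7 is a transcription factor of the interferon response. The labels give the change for the tumour line and no genotype for the C57 hosts, whose immune cells were read. Live CD45+, 7-AAD- cells gave 1 library from each group, called C435A and WT below. The sources used here do not state the age of the mice, how many were pooled or whether a tumour line was 1 clone.

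CCR2 is the receptor by which inflammatory monocytes leave the bone marrow and enter tissue, and activated T cells and NK cells carry it as well. Its ligands CCL2 and CCL7 are made by stromal, tumour and myeloid cells, and CCL12 is a further mouse ligand related to CCL2. In tumours the ligands are known mainly as signals that bring monocytes in, where these can become macrophages. Tumour cells and stroma were removed by the CD45 sort, so their share of the ligands was not measured. The labels call the sample melanoma cells, but just 27 C435A and 54 WT barcodes had melanocyte markers, and these held 1 Ccr2 and 1 Ccl7 UMI in each library and none of Ccl2 or Ccl12.

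In GRCm38 coordinates with the GENCODE M21 annotation, the 3 ligand genes lie on the plus strand of chromosome 11 within 67830 bases, with Ccl11 as the only other gene inside that span. Ccl2 (ENSMUSG00000035385) spans 82035571 to 82037453, Ccl7 (ENSMUSG00000035373) spans 82045712 to 82047525 and Ccl12 (ENSMUSG00000035352) spans 82101845 to 82103400. Each has 3 exons in its longest transcript. Ccr2 (ENSMUSG00000049103) spans 124101950 to 124113557 on the plus strand of chromosome 9. Among the ligands the longest identical run was 23 bases, between Ccl2 and Ccl7. Gm17268, an antisense gene over Ccl2, had 0 UMIs in the kept cells of both libraries. The RefSeq promoter windows in GRCm38.p6 that were used cover Ccl12 and Ccr2. Neither window held, on either strand, the AP-1 letters TGANTCA, the PU.1 letters GAGGAAG, the kappa B motif or the ISRE motif. Of all 32851 windows of the same length, 7.81% held the AP-1, 13.6% the PU.1, 0.411% the kappa B and 3.44% the ISRE motif.

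The kept barcodes numbered 9427 in C435A and 9199 in WT, with 50276770 and 46666557 UMIs and medians of 3203 and 2685 UMIs per cell. The libraries shared 24 barcode sequences, 22 of them among kept barcodes. A cell entered a gate when enough of that gate's markers had a UMI. In C435A 821 and in WT 733 barcodes were set aside as mixed and are described separately. Mixed barcodes passed the gates of more than 1 lineage, both the alveolar and the C1q macrophage gate, or more than 1 dendritic gate. Levels are UMIs of the gene per 1000000 UMIs of the gate (CPM), given for gates with at least 50 cells in both libraries. Each group is a single library, so nothing below has a replicate or a test, and the intervals, all at 95%, allow for counting error alone. B cells were chosen as the measure of stray RNA. Any expression of the 4 genes by B cells themselves cannot be told apart from stray RNA here.

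Ccr2, the receptor, was highest in classical monocytes, the Ly6c2-positive cells that circulate from the marrow, in both libraries. It stood there at 1218 CPM (1147 to 1293) in 181 C435A cells and at 1444 CPM (1372 to 1519) in 165 WT cells. After thinning each cell to 1000 UMIs, 62.6% of C435A and 67.3% of WT classical monocytes had a Ccr2 UMI, against 0.421% and 0.352% of B cells. Without thinning the shares were 88.4% and 90.9%, against 0.739% and 0.658% of B cells, at median depths of 4807 and 5971 UMIs in the monocytes and 2085 and 1898 in the B cells. The classical gate had UMIs of F13a1, itself a marker that defines this gate, in 80.7% and 84.2% of cells. It also held 5 and 7 cells with at least 10 UMIs of S100a8, a gene that neutrophils express at high levels, and these had 0 and 13 Ccr2 UMIs.

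Below the classical monocytes the order of Ccr2 differed between the libraries. In WT it ran from nonclassical monocytes, the patrolling cells of the vessel wall, at 423 CPM (354 to 502) through effector-state CD4 T cells at 285 (216 to 368), NK cells at 229 (196 to 266) and effector-state CD8 T cells at 186 (157 to 219) to macrophages with all 3 C1q genes at 181 (161 to 202). In C435A it ran from the C1q macrophages at 273 CPM (231 to 319) through NK cells at 228 (207 to 251), effector-state CD8 T cells at 194 (185 to 204), gamma delta T cells at 179 (137 to 229), regulatory T cells at 156 (111 to 213) and effector-state CD4 T cells at 151 (135 to 168) to nonclassical monocytes at 137 (109 to 171). The intervals of next neighbours in both series overlapped, except between NK cells and effector-state CD8 T cells in C435A. Alveolar macrophages, the resident phagocytes of the air spaces, were far lower at 16.8 CPM (13.3 to 20.9) in C435A and 25.9 (21.9 to 30.5) in WT. B cells, the measure of stray RNA, were at 2.44 and 2.77 CPM, and naive-state CD8 T cells lay near them at 1.72 and 3.26 CPM.

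**Figure D1:**
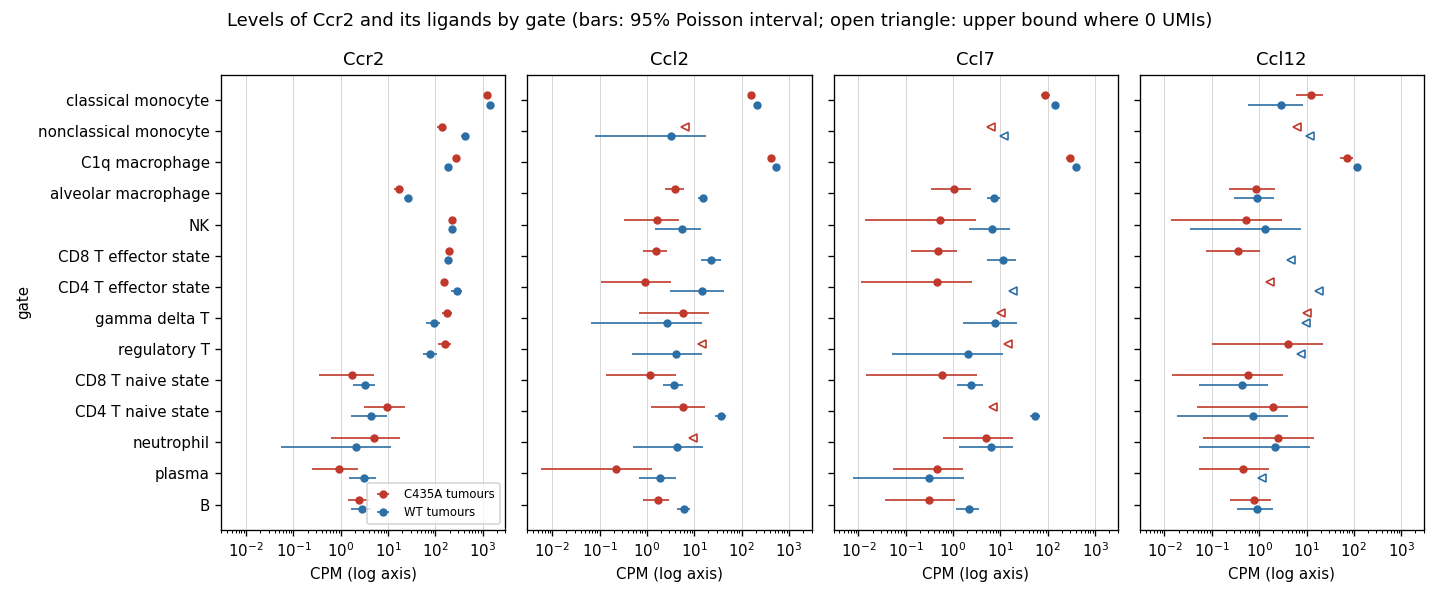
CPM of the 4 genes (log axis) in 14 gates, with C435A in red and WT in blue; bars are 95% Poisson intervals and open triangles the upper bound where no UMI was seen. Ccr2 reaches 1218 and 1444 CPM in classical monocytes and 228 and 229 CPM in NK cells; the highest Ccl12 points are the 71.3 and 117 CPM of C1q macrophages.

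Dendritic gates were too small for levels and are given as counts. Ccr2 had 85 UMIs in 11 C435A and 56 in 11 WT conventional type 1 cells, 94 UMIs in 36 and 282 in 46 conventional type 2 cells, and 28 UMIs in 48 and 37 in 60 plasmacytoid cells. Mature dendritic cells, the migratory form, had 0 UMIs in 44 C435A cells and 1 UMI in 67 WT cells. Cells with both classical and nonclassical markers, called intermediate, had 121 and 175 Ccr2 UMIs in 35 cells each. Ccl2 had 26 UMIs in the C435A intermediate cells, 23 of them in 1 cell, and 8 in the WT ones. Ccl7 had 9 UMIs there in C435A, 8 of them in 1 cell, and 0 in WT.

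Between the tumour genotypes Ccr2 did not move one way. In classical monocytes it was a little lower in C435A, at a log2 ratio of -0.25 (-0.36 to -0.13). In nonclassical monocytes it was lower, at -1.62 (-2.04 to -1.21), from 80 UMIs in 178 C435A cells and 131 in 89 WT cells. With 1 marker fewer per gate that ratio was -0.82 and with 1 more -1.07. The summed nonclassical markers of these cells were at 3397 CPM in C435A and 2964 CPM in WT. Each was higher in C435A, for example Ace at 767 and 710 CPM and Cd300e at 460 and 329 CPM. The summed classical monocyte markers were at 674 and 678 CPM, where Chil3 was at 365 and 268 CPM and Hp at 187 and 307 CPM. The part of these markers in the Ccr2 ratio was not tested. In C1q macrophages Ccr2 was higher in C435A, by 0.60 (0.30 to 0.88), from 153 UMIs in 66 cells and 300 in 135 cells. In alveolar macrophages the ratio was -0.63 (-1.04 to -0.23), with a Ccr2 UMI in 53 of 612 and 67 of 502 cells, and at 1 more marker per gate -0.15.

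NK cells had the same Ccr2 level in both libraries to within counting error, with 423 UMIs in 852 C435A cells and 170 in 340 WT cells and a log2 ratio of -0.01 (-0.27 to 0.26). NK cells made up 9.04% of kept C435A cells and 3.70% of kept WT cells. Their share of all Ccr2 UMIs was 7.09% and 3.84%.

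**Figure D2:**
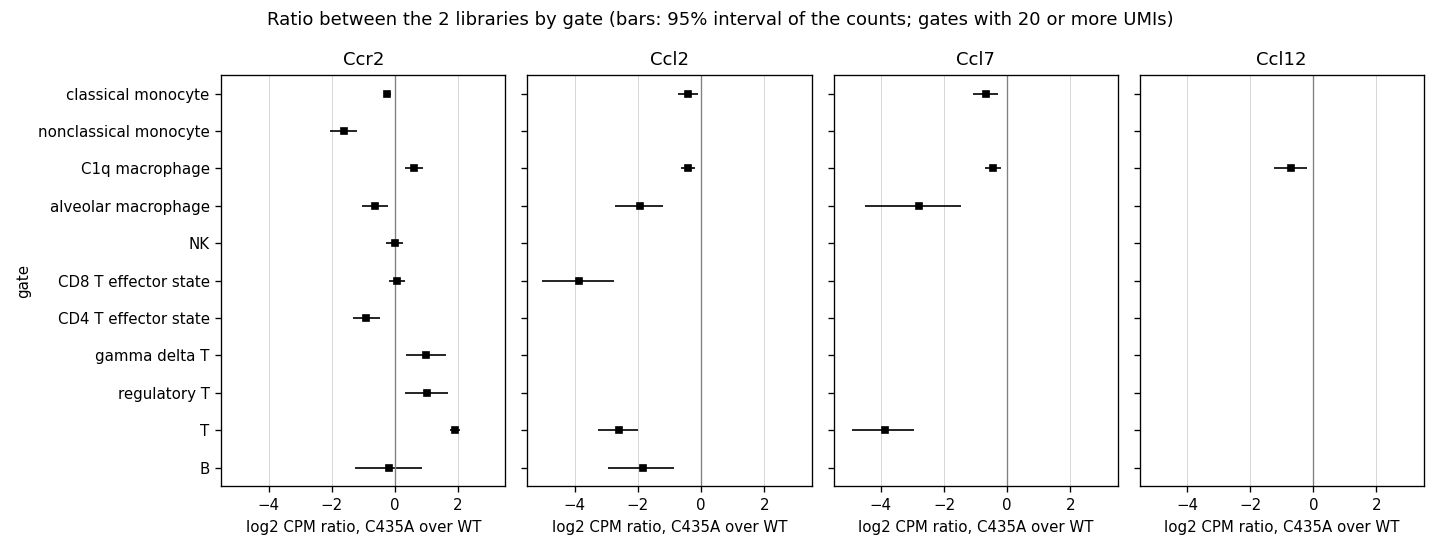
Log2 ratio of CPM, C435A over WT, for each gene in the 9 main monocyte, macrophage, NK and T gates, all T cells and B cells, where a gene had at least 20 UMIs; bars are 95% intervals of the counts and the vertical line marks no difference. Among the gates drawn, Ccr2 lies on both sides of the line, from -1.62 in nonclassical monocytes to 1.90 in all T cells, and the ligand ratios lie below it.

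Over all T cells Ccr2 was 135 CPM in C435A and 36.0 CPM in WT, a log2 ratio of 1.90 (1.75 to 2.06). The make-up of the T cells differed as well. Effector-state CD8 T cells (UMIs of at least 3 of Ccl5, Nkg7, S100a4, S100a6, Gzmb, Gzmk and Cxcr6) were 34.3% of T cells in C435A and 6.76% in WT, and naive-state CD8 T cells were 15.6% and 37.9%. With every T subset given the same weight in both libraries, the Ccr2 levels were 95.8 and 84.6 CPM and the log2 ratio was 0.18. This weighting was added after the data were seen.

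Within effector-state CD8 T cells Ccr2 had 1616 UMIs in 1206 C435A cells and 146 in 243 WT cells, a log2 ratio of 0.06 (-0.18 to 0.32). These cells held 67.3% of the T cell Ccr2 UMIs in C435A and 35.0% in WT. With dividing cells left out, 678 of the C435A and 21 of the WT cells, the levels were 277 and 206 CPM and the ratio was 0.43 (0.15 to 0.71). A Ccr2 UMI was present in 18.8% (16.7 to 21.2) of C435A and 12.3% (8.49 to 17.2) of WT effector-state CD8 T cells at 1000 UMIs per cell. Unthinned, the shares were 55.3% and 30.9% at median depths of 5721.5 and 2775 UMIs.

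Effector-state CD4 T cells went the other way, with Ccr2 at 151 CPM in 425 C435A cells and 285 CPM in 57 WT cells, a log2 ratio of -0.91 (-1.32 to -0.49). Regulatory T cells were at 156 and 77.7 CPM, a ratio of 1.00 (0.32 to 1.69), and gamma delta T cells at 179 and 91.2 CPM, a ratio of 0.97 (0.35 to 1.61). Over all CD8 T cells the ratio was 2.44 and over all CD4 T cells 1.37, and with subsets weighted alike these were 0.18 and -0.77. The direction over all CD4 T cells therefore turned with the weighting. CD8 T cells in neither the naive nor the effector state had Ccr2 at 61.8 CPM in C435A and 12.8 CPM in WT, a ratio of 2.27 (1.49 to 3.16), from 112 and 15 UMIs.

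**Figure D3:**
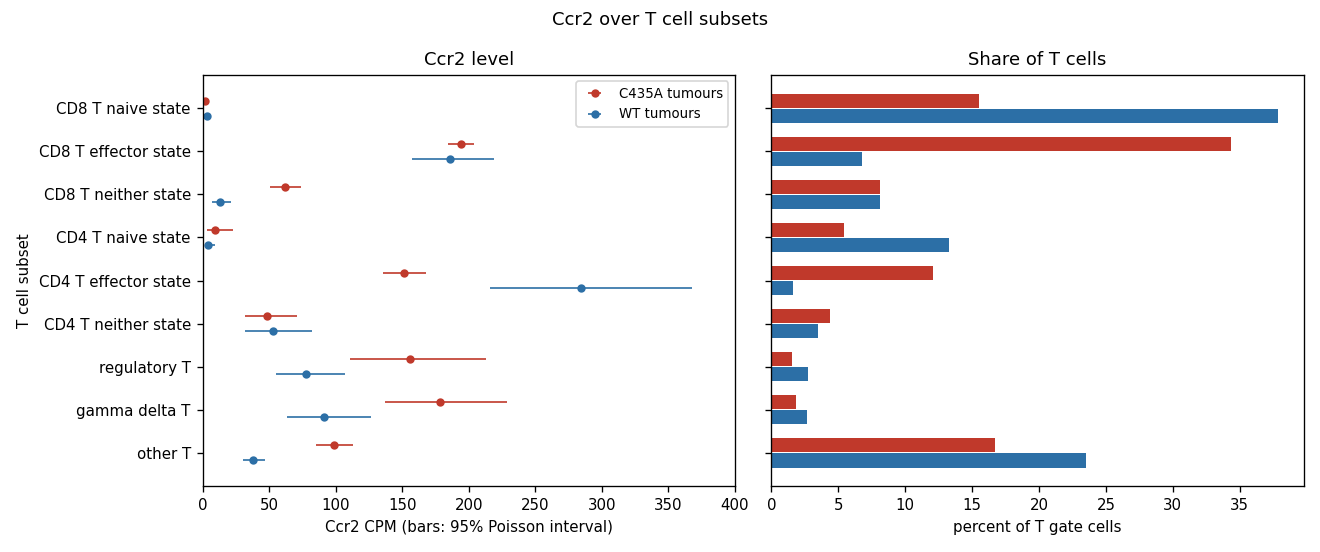
Left, Ccr2 CPM in 9 T cell subsets with 95% Poisson intervals; right, each subset's percent of T gate cells, with C435A in red and WT in blue. The effector-state CD8 levels of 194 and 186 CPM overlap, while that subset is 34.3% of T cells in C435A and 6.76% in WT.

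The 3 ligands were concentrated in C1q macrophages, tissue and tumour macrophages that make complement C1q. Ccl2 stood at 410 CPM (359 to 466) in C435A and 543 CPM (508 to 579) in WT. Ccl7 was at 291 CPM (248 to 339) and 398 CPM (368 to 429). Ccl12 was at 71.3 CPM (50.9 to 97.1) and 117 CPM (101 to 134). Classical monocytes came next for Ccl2, at 159 CPM (134 to 188) and 212 CPM (185 to 242), and for Ccl7, at 89.1 CPM (70.6 to 111) and 143 CPM (121 to 168).

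Ccl12 was scarce outside the C1q macrophages. Classical monocytes had 11 Ccl12 UMIs in C435A and 3 in WT, alveolar macrophages 4 and 5, and B cells 5 and 6. Nonclassical monocytes had no UMI of Ccl7 or Ccl12 in either library and 0 and 1 of Ccl2. In C435A this allows up to 6.33 CPM of each. The bounds in WT were wider, at 11.9 CPM for Ccl7 and Ccl12 and 18.0 CPM for Ccl2. No ligand was thus measurable in nonclassical monocytes at this depth, while Ccr2 was at 137 and 423 CPM there.

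In C1q macrophages each ligand was lower in C435A. The log2 ratio of Ccl2 was -0.40 (-0.62 to -0.19), from 230 UMIs in 66 C435A cells and 902 in 135 WT cells. Ccl7 had 163 and 661 UMIs and a ratio of -0.45 (-0.71 to -0.20). Ccl12 had 40 and 194 UMIs and a ratio of -0.71 (-1.24 to -0.21). The direction turned with the gate: with 1 marker fewer asked of every gate, which left 38 and 69 C1q macrophages, the ratios were 0.63, 0.14 and 0.087. As a mean of per-cell CPM, which counts shallow cells as much as deep ones, Ccl12 was at 0.43.

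Few cells carried most of the ligand UMIs. The cell with most Ccl2 held 58 UMIs in C435A and 91 in WT, and the 10 highest cells held 87.0% and 55.8% of the Ccl2 UMIs of the gate. For Ccl7 the highest cells held 61 and 104 UMIs and the 10 highest cells 92.6% and 75.3%. For Ccl12 the highest cells held 7 and 53 UMIs. With the highest cell of each library left out, Ccl2 was at -0.65 and Ccl7 at -0.85. At least 10 Ccl2 UMIs were seen in 5 of 66 C435A cells and 26 of 135 WT cells.

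**Figure D4:**
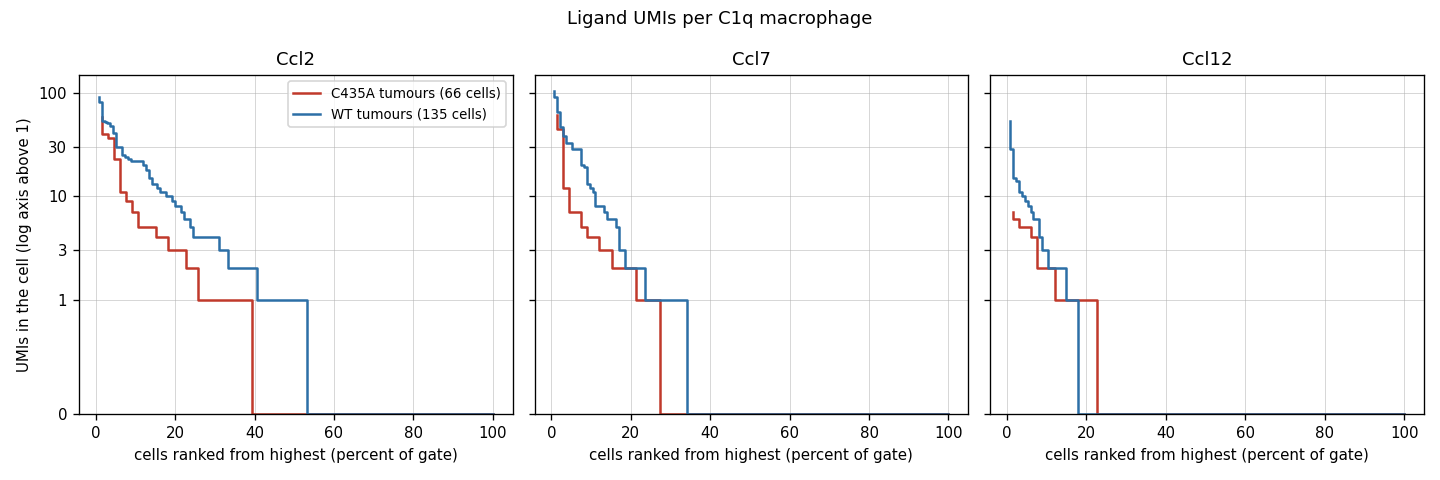
UMIs of each ligand per C1q macrophage, cells ranked from the highest and placed by percent of the gate; the vertical axis is logarithmic above 1. The curves fall steeply, from 58 and 91 Ccl2 UMIs in the first cell and Ccl2 was seen in 26 of 66 C435A and 72 of 135 WT cells.

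At 1000 UMIs per cell, 15.4% (7.63 to 26.5) of C435A and 25.4% (18.3 to 33.6) of WT C1q macrophages had a Ccl2 UMI, 7.69% and 14.9% a Ccl7 UMI, and 10.8% and 7.46% a Ccl12 UMI. B cells had Ccl2 in 0.140% and 0.665%, Ccl7 in 0.0468% and 0.195%, and Ccl12 in 0.234% and 0.0782%. Unthinned, 39.4% and 53.3% of C1q macrophages had a Ccl2 UMI, at median depths of 7335.5 and 10207 UMIs. The intervals of the 2 libraries overlapped for each ligand at equal depth.

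Ccl7 lay almost wholly in cells that also had Ccl2. Of 18 C435A cells with Ccl7, 16 also had Ccl2, and of 46 WT cells with Ccl7, 39 had Ccl2. In WT 23 of 24 Ccl12-positive cells had Ccl2, and in C435A 8 of 15. Cells with Ccl2 held 98.2% of the Ccl7 UMIs in C435A and 98.3% in WT. No ligand was detected in 33 of 66 C435A and 55 of 135 WT cells. Depth bears on these counts: in WT, cells with Ccl2 had a median of 12399.5 UMIs and cells without it 7194, while in C435A the medians were 7361 and 7270.

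Ccl2 was seen in C1q macrophages with and without the receptor. Of 30 C435A C1q macrophages with Ccr2, 11 had Ccl2, against 15 of the 36 without Ccr2. Of 47 WT cells with Ccr2, 24 had Ccl2, against 48 of the 88 without it. The Ccr2-positive cells held 54.3% of the Ccl2 UMIs in C435A and 32.8% in WT, and 71.8% and 24.5% of the Ccl7 UMIs. Single cells weigh on these shares, since 1 Ccr2-positive cell held 61 of the 163 Ccl7 UMIs of C435A.

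The C1q macrophages of the libraries differed in other markers. Chil3, a chitinase-like protein of alveolar macrophages and monocytes, was at 41.0 CPM in C435A and 1012 CPM in WT. The 9 alveolar macrophage markers summed to 173 and 1528 CPM and the 6 classical monocyte markers to 2178 and 3643 CPM. The 6 nonclassical markers summed to 203 and 110 CPM, and none of these markers was at 0. Chil3 belongs to both the alveolar and the classical set, so it counts in both sums. Other markers of both sets went either way. Marco was at 35.6 and 217 CPM and F13a1 at 44.6 and 93.9 CPM. Ear1, from 7 and 2 UMIs, was at 12.5 and 1.20 CPM and Hp at 39.2 and 36.7 CPM. The 4 markers of type 2 dendritic cells, a type with Ccr2 UMIs above, summed to 385 and 169 CPM, higher in C435A as Ccr2, Ccl17 and Ccl22 were, and their part in those ratios was not tested. In the 55 C435A and 96 WT cells with fewer than 3 classical monocyte markers, the log2 ratios were -0.52 for Ccl2, -0.29 for Ccl7, -0.73 for Ccl12 and 0.39 for Ccr2. In the other 11 and 39 cells they were -0.16, -2.16, -0.79 and 1.18. The part of the alveolar and nonclassical markers in the ligand ratios was not tested. Arg1, an arginine-degrading enzyme of tumour macrophages, had a UMI in 11 C435A and 41 WT cells, which held 115 and 388 of the Ccl2 UMIs, a mean of 10.45 and 9.46 per cell. In the cells without Arg1, 55 and 94, the log2 ratios were -0.81 for Ccl2, -1.13 for Ccl7 and -1.23 for Ccl12. In the few cells with Arg1 the ratios went the other way, at 0.30 for Ccl2, 0.74 for Ccl7 and 0.75 for Ccl12, where the intervals for Ccl2 and Ccl12 held 0, and the difference between both kinds of cell was not tested. The ratios without Arg1 moved with the settings: with 1 marker fewer they were -0.28, -0.43 and -0.25, and as a mean of per-cell CPM -0.13, -0.15 and 0.22. Without the highest cell of each library Ccl2 was at -1.21 and Ccl7 at -1.90.

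In classical monocytes Ccl2 had 143 UMIs in C435A and 221 in WT, a log2 ratio of -0.41 (-0.73 to -0.10), and it lay in 29 of 181 and 28 of 165 cells. The highest cells held 57 and 68 of these UMIs, and without them the ratio was -0.62. After thinning to equal depth, 7.82% (4.34 to 12.8) of C435A and 4.24% (1.72 to 8.55) of WT cells had a Ccl2 UMI. The share thus went the other way from the ratio, with intervals that overlapped. With 1 marker fewer per gate the Ccl2 ratio was -1.43, from 38 and 107 UMIs, and for Ccl7 -2.21, from 6 and 29 UMIs. Ccl7 had 80 and 149 UMIs in 8 cells each, a ratio of -0.68 (-1.09 to -0.28). A single C435A cell gave 69 of its 80 Ccl7 UMIs, and with the highest cell of each library left out the ratio was -3.03, from 11 and 104 UMIs. The summed C1q genes in this gate were at 37.9 and 97.0 CPM, higher in WT as the levels of Ccl2 and Ccl7 were, and their part in these ratios was not tested.

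In alveolar macrophages the ligands were near the level of stray RNA. Ccl2 was at 3.98 CPM in C435A and 15.1 CPM in WT, where B cells had 1.68 and 5.996 CPM. The log2 ratio of Ccl2 was -1.92 (-2.72 to -1.19) in alveolar macrophages and -1.84 (-2.95 to -0.84) in B cells. T cells had Ccl2 at 1.63 and 9.93 CPM, and 46 of the 115 UMIs in WT came from 1 naive-state CD4 T cell. A WT cell of that gate likewise gave 69 of the 104 Ccl7 UMIs of all WT T cells. These ratios are not read as a change of expression in those cells.

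The mixed barcodes held much of the ligand signal. In WT they held 2269 of 3726 Ccl2 UMIs, 1108 of 2127 Ccl7 UMIs and 429 of 649 Ccl12 UMIs, and in C435A 334 of 853, 207 of 500 and 98 of 176. Most of this lay in 54 C435A and 122 WT barcodes with all 3 C1q genes, which held 32.5% and 54.3% of all Ccl2 UMIs. Of these barcodes 45 and 82 also passed the T cell gate, with a median of 26 and 23 T marker UMIs where T gate cells had 25 and 18. The alveolar macrophage gate was passed by 10 and 22 of them, which held 37 and 473 Ccl2 UMIs. The median depth of all 54 and 122 barcodes was 15907 and 19992 UMIs, above the 7335.5 and 10207 of C1q macrophages.

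Their Ccl2 stood at 309 CPM in C435A and 730 CPM in WT, and the log2 ratio was -1.24 (-1.42 to -1.06). Ccl7 was at -0.82 (-1.05 to -0.60) and Ccl12 at -0.55 (-0.89 to -0.22), and Ccr2 was higher in C435A by 0.99 (0.73 to 1.25). Over all 120 and 257 barcodes with the 3 C1q genes, Ccl2 was at -0.92 (-1.06 to -0.79), Ccl7 at -0.66, Ccl12 at -0.60 and Ccr2 at 0.81. These barcodes can hold more than 1 cell, and whether they do was not tested beyond the Scrublet scores.

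**Figure D5:**
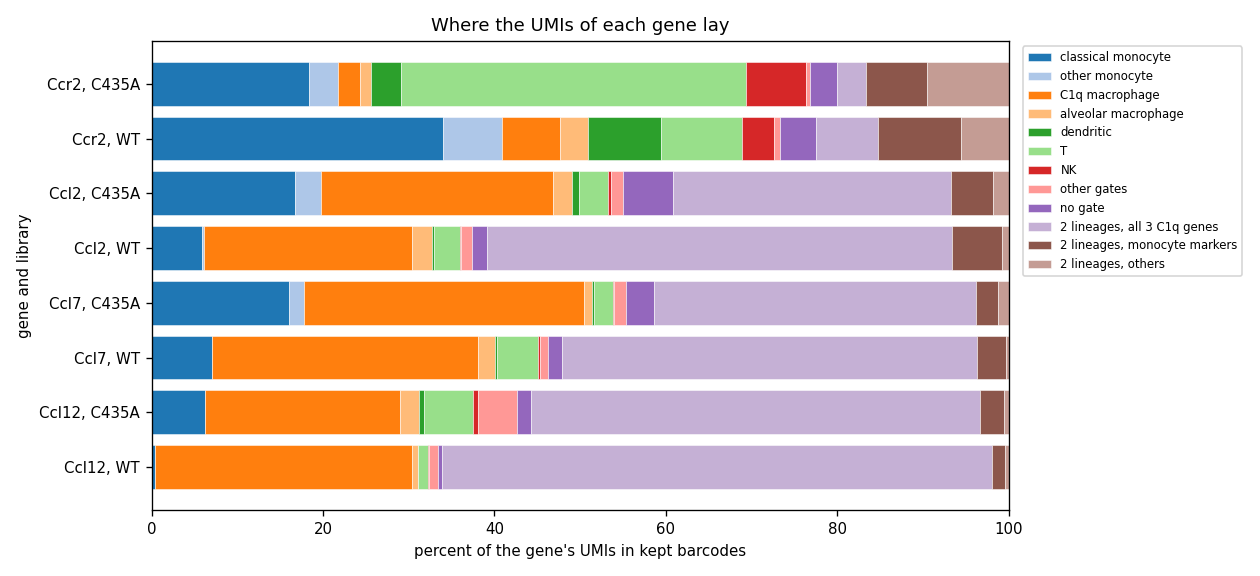
Percent of each gene's UMIs in kept barcodes by gate, 1 bar for each gene and library. The last 3 colours are mixed barcodes, which include those that passed both macrophage gates or more than 1 dendritic gate. T cells hold 40.2% of Ccr2 UMIs in C435A and 9.41% in WT, and mixed barcodes with all 3 C1q genes hold 54.3% of Ccl2 UMIs in WT.

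Summed over all kept barcodes, the ligands were lower in C435A by log2 ratios of -2.23 (-2.34 to -2.13) for Ccl2, -2.20 (-2.34 to -2.06) for Ccl7 and -1.99 (-2.24 to -1.75) for Ccl12, with Ccl2 at 16.97 and 79.8 CPM. These sums fell further than the levels within C1q macrophages, and the gate also held a smaller share of cells. Ccr2 over all kept barcodes was higher in C435A by 0.32 (0.27 to 0.38). Classical monocytes held 18.3% of its UMIs in C435A and 34.0% in WT, and T cells 40.2% and 9.41%.

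The share of cells in the monocyte and macrophage gates did not move together. Classical monocytes were 1.92% of kept cells in C435A and 1.79% in WT, a difference of 0.126 points (-0.263 to 0.516). Nonclassical monocytes were 1.89% and 0.967%, higher by 0.921 points (0.582 to 1.27). C1q macrophages were 0.700% and 1.47%, a difference of -0.767 points (-1.07 to -0.472), which was -1.52 points over all barcodes with the 3 C1q genes. Alveolar macrophages were 6.49% and 5.46%, higher by 1.03 points (0.354 to 1.72). All are shares of sorted cells after gating, so a change in another type changes them too.

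Genes with the pattern most like each member were ranked by Pearson r of log2(CPM + 1) over 17 gates in both libraries, 34 points that share library and depth, among 10693 genes. The nearest to Ccr2 were S100a4 (r = 0.90, itself a gate marker), Ahnak (0.90), Emp3 (0.90), Cx3cr1 (0.87) and Prkx (0.84). Ccl2 and Ccl7 were nearest to each other (0.88), and both were followed by Pf4 (0.85 for each) and C3ar1 (0.83 for Ccl2 and 0.87 for Ccl7). Ms4a7 (0.80) and the gate marker C1qb (0.80) completed the list of Ccl2, and Cxcl16 (0.83) and Pdpn (0.82) that of Ccl7. Ccl12 was nearest to C1qb (0.81), Retnla (0.81), F5 (0.79), Ms4a7 (0.79) and Pdpn (0.79). Every gene named beside a ligand was highest in the C1q macrophages without Arg1, so a few points can weigh heavily on these values. Between Ccr2 and the ligands r was 0.43 for Ccl2, 0.31 for Ccl7 and 0.25 for Ccl12.

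Around the 4 members, 6 lists of related genes were read in the 3 gates as changes of at least 1.5-fold among genes with at least 20 UMIs. In classical monocytes 4 of 55 measured list genes were higher in C435A, where 7.36% of all 7495 genes were, and 4 were lower, where 9.99% of all genes were. Both counts were near the background. The list medians in this gate ran from -0.05 for adhesion to 0.34 for growth and fate, against -0.03 over all genes. Ccl5, a T cell chemokine, was higher by 2.18 (1.58 to 2.82), as 113 and 29 UMIs in 73 and 27 cells, and the summed T cell markers of that gate were at 53.5 and 35.5 CPM. Fos, a subunit of AP-1, was higher by 0.66 and Nr4a1, the factor that nonclassical monocytes need, by 0.67. Ccl24, an eosinophil chemokine, was at -2.92, but 59 of 61 and 389 of 536 UMIs came from 1 cell in each library. Pecam1 (-1.68) had 17 of its 26 WT UMIs in 1 cell, and Nup85 (-1.20) and Csf1 (0.98) had intervals that held 0. None of the 7 measured receptors of other monocyte attractants passed the fold.

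In C1q macrophages 18 of 56 list genes were higher in C435A, where 14.7% of all 8178 genes were, and 2 were lower, where 11.1% were. TMM scaling left 14 higher and 3 lower, against 10.0% and 15.5% of all genes, and with it the share of all calls that were higher went from 56.9% to 39.2%. The list medians were 1.11 for other CC chemokines, 0.62 for receptors, 0.38 for growth and fate, 0.23 for CCR2 signalling and 0.17 for both adhesion and inducers of Ccl2, against 0.07 over all genes. Cx3cr1, the fractalkine receptor, was higher by 1.68 (1.38 to 1.98), at 351 and 110 CPM. The 6 nonclassical monocyte markers of this gate summed to 203 and 110 CPM, and their part in the Cx3cr1 ratio was not tested. Of the chemokines, 5 of 9 were higher, and single cells weighed on most of them. A single C435A cell held all 63 Ccl22 UMIs (6.54). The highest C435A cell held 47 of 51 Ccl17 UMIs (3.65), 46 of 65 Ccl8 UMIs (1.71) and 53 of 104 Ccl24 UMIs (1.16). Ccl5 (1.11, 0.78 to 1.44) was more spread, with UMIs in 35 C435A and 39 WT cells and 48 of 134 C435A UMIs in the highest cell. The summed T cell markers of this gate were at 44.6 and 27.1 CPM, and their part in the Ccl5 ratio was not tested. The integrin chains Itga4 (0.86) and Itgal (0.96), by which monocytes hold to vessel walls, were higher, as were Cxcr4 (0.74) and the atypical receptor Ccrl2 (0.75).

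Of 11 genes of CCR2 signalling, 3 were higher in these macrophages and none was lower, where 14.7% and 11.1% of all genes were. The 3 were Nup85 (1.46), whose product binds the tail of CCR2, Arrb2 (0.68) and the kinase gene Ptk2b (0.73). Nup85 rested on 13 and 14 UMIs, with an interval of 0.25 to 2.66. Of 11 genes known to drive or restrain Ccl2, Fos (0.96) and the NF-kappa B inhibitor Nfkbia (0.65) were higher and none was lower, which is near the 14.7% and 11.1% of all genes. The growth and fate list had Csf1r (0.62), the receptor for the macrophage growth factor, Klf4 (0.68) and Nr4a1 (1.02) higher and Csf1 at -1.16 (-2.87 to 0.21). Ccr1, a receptor for CCL7 and other chemokines, was lower, at -1.004 (-1.46 to -0.57), at 90.9 and 182 CPM. Under TMM scaling Csf1r (0.48), Klf4 (0.54), Arrb2 (0.54) and Nfkbia (0.51) were under 1.5-fold, and Ccl6, at -0.48 before, passed it at -0.62.

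In alveolar macrophages 10 of 57 list genes were higher, where 10.7% of all 10957 genes were, and 4 were lower, where 5.07% were. The median log2 ratio of all genes in this gate was 0.12, and TMM scaling moved it to -0.0033, with 8 list genes higher and 5 lower against 7.06% and 7.36% of all genes. The share of calls that were higher went from 67.8% to 49.0%. The list medians ran from -0.04 for other CC chemokines to 0.37 for receptors. The chemokine Ccl9 was at -1.11 (-1.28 to -0.94) and Ccr1 at -0.59 (-0.75 to -0.42). Ccl5 was higher by 1.89, Nr4a1 by 1.007, Fos by 0.89, Jun by 0.62 and the complement receptor C5ar1 by 0.63. The summed T cell markers of this gate were at 61.7 and 35.0 CPM, higher in C435A as Ccl5 was, and their part in its ratio was not tested. Under TMM scaling Jun (0.50) and C5ar1 (0.50) were under 1.5-fold, and Ccl22, at -0.47 before, passed it at -0.59; median of ratios scaling also took Itgb7 to 0.56. Cx3cr1 (0.99), Itgb7 (0.71) and Il6 (1.60) rested on 18 to 79 UMIs in C435A, and 139 of 169 Ccl17 UMIs (1.30) came from 1 cell.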

How the data were processed

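Values are UMI counts per gene and barcode, deposited by the authors without normalization; per the file headers they come from Cell Ranger 7.2.0. GRCm38 is the build in the submitters' processing notes. Because the labels mention BD Rhapsody as well as 10x Chromium, the platform is uncertain. The annotation release was not stated in what was used.

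Filters on barcodes were a minimum of 200 genes and of 500 UMIs and a mitochondrial share below 20%; 102 C435A and 157 WT barcodes failed them. The highest Scrublet scores (scanpy 1.11.5), 0.8% per 1000 barcodes, were then removed, 844 and 800; the number of barcodes this rate is applied to was corrected after member values had been seen. The gates needed UMIs of at least 3 of 6 T markers, 2 of 6 NK, 2 of 4 B, 3 of 5 plasma, 4 of 6 neutrophil, 4 of 9 alveolar macrophage, 3 of 3 C1q, 4 of 5 melanoma, 2 dendritic, and 3 of 6 classical or nonclassical with 3 of 6 myeloid markers. Thresholds were set after counts of marker-positive cells, and before member values, were seen. The gates left 345 and 350 kept barcodes with none. The members and lists were chosen with earlier results of these data known. Effector-state T cells had at least 3 effector and at most 1 naive marker, and naive-state cells at least 2 naive and at most 2 effector markers.

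UMIs were summed over a gate as CPM. Intervals were exact Poisson for levels, Clopper-Pearson for shares, conditional on the summed UMIs for log2 ratios, and Newcombe for differences of shares. Ratios need 20 UMIs, and a count of 0 was set to 3. Named list genes are up to 4 a list and gate past 1.5-fold, by the interval bound nearest 0. Some genes that meet this rule are not reported here. TMM factors came from edgeR 4.0.16. The ratio script was tested on simulated data. Alternatives were other scalings, gates, filters, doublet handling and thinning to 2000 UMIs. Leaving out the highest cell, T subset weights, dividing cells, S100a8-rich cells and all C1q barcodes are given too; the last 4 were added after the data were seen.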

Additional observations from a re-analysis of the deposited data

Results flagged for a closer look

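Ccr2 stood apart in opposite directions in different gates, which is why its ratios are listed here; the differences between gates were not tested, since each group had 1 library. The log2 ratios of C435A over WT were -0.25 in classical monocytes, -1.62 in nonclassical monocytes, -0.63 in alveolar macrophages, 0.60 in C1q macrophages, 2.44 in all CD8 T cells and 1.37 in all CD4 T cells. With T subsets weighted alike these last ratios were 0.18 and -0.77, so the direction in CD4 T cells turned.

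The mixed barcodes entered no comparison between gates, and the members had UMIs there above the 3 that a count of 0 allows. Ccr2 had 1197 UMIs in C435A and 994 in WT, Ccl2 334 and 2269, Ccl7 207 and 1108, and Ccl12 98 and 429.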

How the results depend on the processing

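The 13 main log2 ratios have 139 alternative values. Of these, 114 stayed inside the 95% interval of the reported ratio and 21 fell outside it in the same direction. The other 4 turned direction, all 4 for ligands in C1q macrophages. A turn was counted only where the interval of the reported ratio left out 0. Ccr2 in NK cells, at -0.01, changed sign under TMM scaling, which adds 0.065, and counts as inside. With 1 fewer marker per gate, Ccl2 there was 0.63, Ccl7 0.14 and Ccl12 0.087, where the looser gates left 38 and 69 cells. As a mean of per-cell CPM Ccl12 was 0.43. The same mean gave 0.22 for Ccl12 in the cells without Arg1. In other gates, 1 fewer marker gave -1.43 for Ccl2 and -2.21 for Ccl7 in classical monocytes, -0.82 for Ccr2 in nonclassical monocytes, and -1.11 for Ccr2 and -2.90 for Ccl2 in alveolar macrophages. With 1 more marker, Ccr2 was -0.12 in classical monocytes, -1.07 in nonclassical monocytes and -0.15 in alveolar macrophages, and Ccl2 was -0.76 in C1q macrophages. Keeping barcodes of more than 1 lineage gave Ccl2 -0.78 in classical monocytes and -0.73 in C1q macrophages. For Ccr2 it gave -0.14 in alveolar macrophages, 0.98 in C1q macrophages and 1.25 in T cells. In that setting barcodes of both macrophage gates or of more than 1 dendritic gate stayed set aside. Without the highest cell, Ccl7 was -3.03 in classical monocytes, and in C1q macrophages Ccl2 was -0.65 and Ccl7 -0.85. All barcodes with the 3 C1q genes gave Ccl2 -0.92. Ccr2 was 0.43 in effector-state CD8 T cells without dividing cells, 2.07 in T cells under median of ratios scaling, and 0.18 in T cells and -0.77 in CD4 T cells with subsets weighted alike.

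Of the share differences, that of C1q macrophages moved, to -1.10 points with barcodes of more than 1 lineage kept, -0.35 with 1 fewer marker and -1.52 over all barcodes with the 3 C1q genes. At a 2-fold limit the list genes higher in C435A numbered 1 of 55 in classical monocytes, 8 of 56 in C1q macrophages and 5 of 57 in alveolar macrophages, where 1.68%, 4.5% and 2.75% of all genes were. At 50 or more UMIs those lower numbered 2 of 52 in classical monocytes (5.63% of all genes) and 1 of 52 in C1q macrophages (7.84%), and with no filter 4 of 60 in C1q macrophages (10.1%). With 1 fewer marker, Ccl2 and Ccl7 in naive-state CD4 T cells and Ccl7 in all CD4 T cells were not computed, as both libraries had 3 UMIs or fewer. No paired analysis was possible because each group holds 1 library. Splits by monocyte markers, S100a8 and division were chosen after the data were seen. List counts were also computed in effector-state CD8 T cells, outside the rule for named genes: of 47 measured, 4 were higher and 18 lower, where 15.7% and 20.1% of 10435 genes were, and 8 and 13 under TMM scaling, where 23.4% and 12.9% were.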
